A study of Homo sapiens with 9 samples.

Results

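The genes described here are 9 genes of iron uptake, storage and export, chosen by name: CP, TFRC, FTH1, FTL, SLC40A1, SLC11A2, STEAP3, IREB2 and NCOA4. All 9 were among the 27800 gene symbols of the deposited table. They were followed in PANC-1, an established line from a human pancreatic tumour, with 3 libraries each at day 0, day 2 and day 14 of combined nutrient and oxygen deprivation. All 9 columns of the table carry the tag WT, and the labels give no other genotype. The medium was DMEM in which serum was reduced to 0.5%, amino acids to 20% of the usual amount and glucose to 2.5 mM. No other treatment was given, and this text was the same for every sample. Whether the day 0 cells had already been in that medium is thus not stated. The labels give no undeprived cells at day 2 or day 14, so deprivation, time in culture and a batch by day cannot be told apart. They do not say whether replicates were separate cultures, so p-values measure only the spread between these libraries, which may be technical. Values are in TPM (transcript abundance corrected for length and scaled to the same sum in each library), and the sequencing depth behind them is unknown.

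Cells take up iron when iron-loaded transferrin binds the transferrin receptor, encoded by TFRC, and is carried into endosomes, where STEAP3 reduces the iron and the divalent metal transporter SLC11A2 (DMT1) moves it to the cytosol. Iron not in use is stored in ferritin, a shell of heavy (FTH1) and light (FTL) chains, and NCOA4 is the receptor that carries ferritin to lysosomes for breakdown. Iron leaves through ferroportin, encoded by SLC40A1, and ferroxidases such as ceruloplasmin, the copper protein encoded by CP, oxidise it for release. The iron regulatory proteins, of which IREB2 encodes one and ACO1 the other, bind hairpins called iron-responsive elements when iron is scarce. Bound in a 5′ UTR, as in ferritin, they block translation. Bound in the 3′ UTR of TFRC, they protect the message from decay.

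The hairpins are shown because the iron regulatory proteins act through them, though a match of letters does not tell which messages respond. GENCODE v29 transcripts (GRCh38) were searched on the sense strand for a C, then 5 bases of any kind, the loop CAGTGN and 5 more bases, where the 5 bases on either side of the loop can pair, G with U included. The longest coding transcript was taken for each of 19652 genes, and 1.32% of them held a match. TFRC held 4 matches, all in its 3′ UTR, and it was the 1 gene of the 19652 with 4 or more. FTH1, FTL and SLC40A1 each held 1, all in the 5′ UTR. CP, STEAP3, IREB2, NCOA4 and the SLC11A2 transcript searched held 0, which says only that these letters are not there. Among the 4224 transcripts at least as long as that of TFRC, 2.51% held a match. The sites are printed in the sense direction over 30 bases, with the loop in capitals. The TFRC sites lie on the minus strand at chr3:196050979-196051008, chr3:196050575-196050604, chr3:196050510-196050539 and chr3:196050463-196050492, that of FTL on the plus strand at chr19:48965334-48965363, and that of SLC40A1 on the minus strand at chr2:189580661-189580690.
TFRC site 1: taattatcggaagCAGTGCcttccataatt
TFRC site 2: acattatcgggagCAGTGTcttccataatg
TFRC site 3: tctgtatcggagaCAGTGAtctccatatgt
TFRC site 4: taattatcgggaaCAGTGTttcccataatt
FTL site 1: tctcttgcttcaaCAGTGTttggacggaac
SLC40A1 site 1: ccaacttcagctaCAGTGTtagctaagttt
The 4 TFRC sites differ in stem, and sites 2 and 4 share the loop CAGTGT. The first C of the pattern and the CAGTG of the loop were required by the search, so sharing them with FTL and SLC40A1 is no finding. A match is a description of the letters, and binding was not measured.

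One library stood apart. Day 0 replicate 2 correlated with the other day 0 libraries at 0.870 and 0.875, which correlated with each other at 0.972 (Pearson, across 14144 genes, which are not independent replicates). It also listed fewer genes at 1 TPM or more (11363, against 13016 to 13868). Relative to the mean of day 0 replicates 1 and 3, its ferritin values were high, at 1.64 times for FTH1 and 1.59 times for FTL. The other 7 members were low, from 0.159 times for STEAP3, 0.316 times for SLC11A2 and 0.327 times for IREB2 to 0.686 times for TFRC. The ferritin transcripts are short (1229 and 878 nt) and those of the other 7 are 3442 to 6354 nt. With this library left out, the shares of all genes called were 48.3% for day 2 against day 0, 49.1% for day 14 against day 0 and 27.4% for day 14 against day 2, so calls gained below without it stand beside many more calls in general. Against day 0 at day 2 the changes without it were -2.27 for TFRC, 1.96 for FTH1, 2.04 for FTL and 1.67 for CP, and that of NCOA4 at day 14 was 0.89, all still called. Of 2 entries that took up much of all TPM, MIR6723 held 16.2% to 32.6% over all libraries. MIR4461 held 6.44% to 11.2%, except in day 0 replicate 2, where it held 0.982%. Such shares lower the values of all other genes. Ribosomal protein genes held 23.8% of TPM in day 0 replicate 2 and 10.2% to 14.8% in the other libraries. All 7 epithelial markers looked up (KRT7, KRT8, KRT18, KRT19, EPCAM, SOX9 and MUC1) were above 0 in every library, with sums of 3217 to 4443 TPM at day 0, 1157 to 1383 TPM at day 2 and 1291 to 1475 TPM at day 14. Of the other cell types looked up, DCN (fibroblast), HBB (erythroid) and CPA1 (acinar) were listed at 0 in all 9 libraries and CD163 (macrophage) was at most 0.0155 TPM. Endothelial markers summed to at most 0.39 TPM. Among the markers of these types, those that passed the filter were CD68 (up to 68.6 TPM), COL1A1 (up to 72.6 TPM), EPOR (up to 18.3 TPM) and HBA1 (up to 5.31 TPM).

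Over the 3 days, 5 of the 8 tested members differed by the moderated F test of limma (CP, FTL, TFRC, FTH1 and NCOA4), against 35.4% of all 14144 genes tested. SLC40A1 was the 1 member below the filter on low values (at least 1 TPM in at least 3 libraries). CP passed it through its 3 day 2 libraries and 1 of day 0, so its inclusion leans on the day at which it is high. At day 2 against day 0, TFRC fell and FTH1, FTL and CP rose (4 of 8 called, with 30.7% of all genes called). At day 14 against day 0, FTL and NCOA4 rose (2 of 8, with 34.2% of all genes called). Between day 14 and day 2, CP fell (1 of 8, with 0.417% of all genes called). The share for day 14 against day 0 is near that of all genes. The median log2 change of the 8 was 0.50, 0.71 and 0.14 in these comparisons, beside 0.23, 0.44 and 0.24 over all genes. Median-ratio scaling brings the medians of all genes to 0.01, 0.00 and 0.01. It moved the share of higher genes among those called from 62.4% to 51.4% for day 2 against day 0, from 80.4% to 50% for day 14 against day 0 and from 50.8% to 26.3% for day 14 against day 2. For day 2 against day 0 the number higher hardly moved (2715 and 2748) while the number lower went from 1633 to 2603, and for day 14 against day 2 it was 30 both ways, with 29 and 84 lower. Among the members it left the split of 3 higher and 1 lower at day 2, and for day 14 against day 0 it turned 2 higher and 0 lower into 1 higher (NCOA4) and 1 lower (TFRC). Quantile normalization gave 3 higher and 2 lower there.

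**Figure D1:**
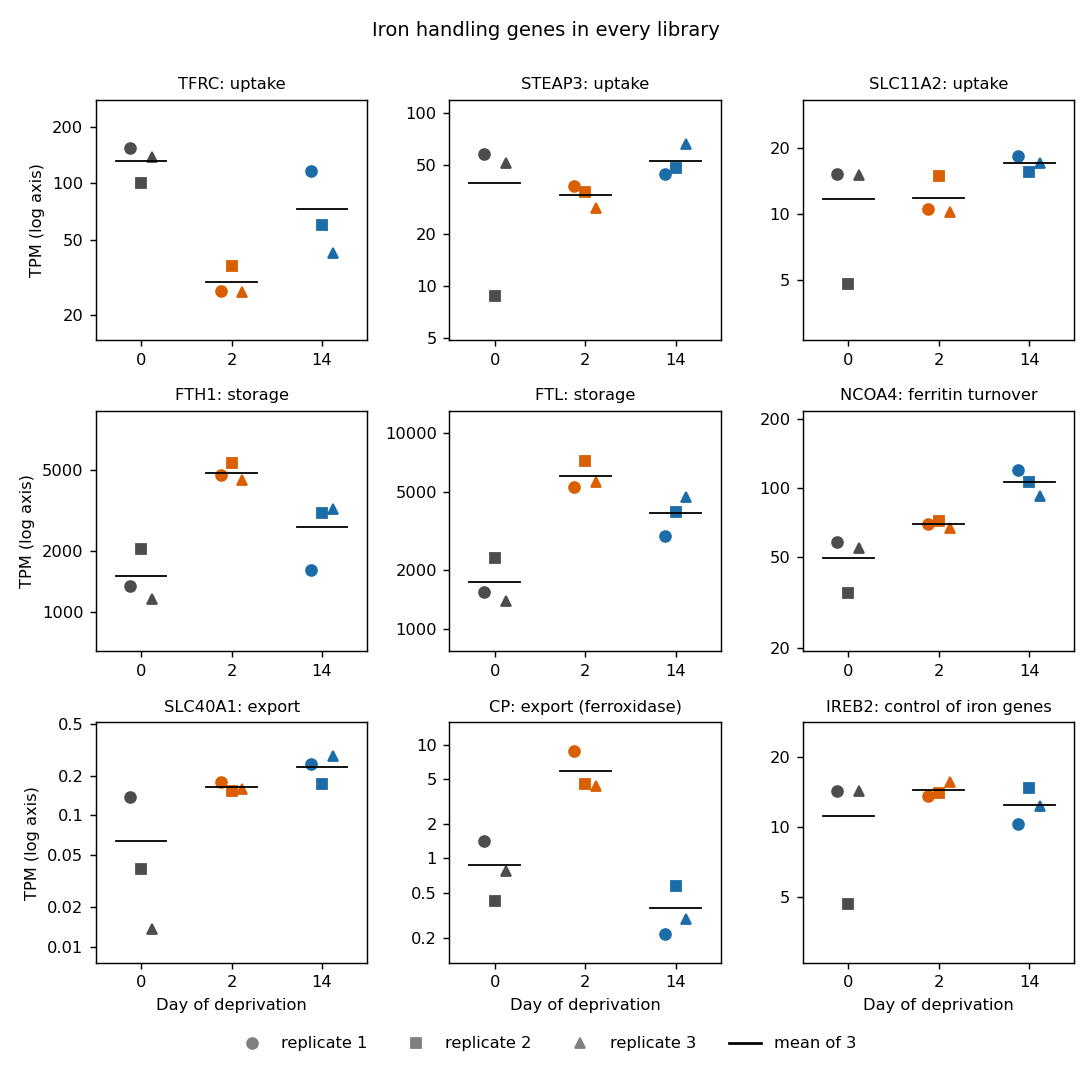
TPM (log axis) of the 9 genes in each library at day 0, 2 and 14 of deprivation, with 1 symbol per replicate number and a line at the mean of 3. TFRC is lowest and FTH1, FTL and CP are highest at day 2, NCOA4 is highest at day 14, and day 0 replicate 2 lies far below its group for STEAP3, SLC11A2 and IREB2.

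TFRC, the receptor of the uptake route, stood at 155, 101 and 138 TPM in replicates 1, 2 and 3 of day 0, at 26.9, 36.2 and 26.4 TPM in the day 2 replicates and at 116, 59.9 and 42.5 TPM in those of day 14. Every day 2 library lay below every library of the other days, and day 14 replicate 1 lay within the day 0 range. The mean was 131 ± 27.8 TPM at day 0 and 29.8 ± 5.51 at day 2 (SD, n = 3). The log2 change was -2.09 ± 0.35 (SE, limma, adjusted p = 0.00336). The fall at day 2 was called in each of the 23 alternatives that were run. At day 14 the mean was 72.9 ± 38.6 TPM. Its difference from day 0 was not called (log2 change -0.94, 95% interval -1.75 to -0.14, adjusted p = 0.0681), nor was that from day 2 (1.15, interval 0.34 to 1.95, adjusted p = 0.155). Without day 0 replicate 2 both were called, at -1.12 (adjusted p = 0.039) and 1.15 (adjusted p = 0.0401), and without day 14 replicate 1 the former was -1.34 (adjusted p = 0.0136). Bulk RNA cannot tell fewer cells with a message from less of it per cell.

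The TFRC promoter is shown because TFRC was the 1 member called lower at day 2 in the fit of all 9 libraries. It is also described as a target of hypoxia-inducible factors, whose binding sites hold the letters ACGTG. Among the RefSeq windows of GRCh38.p14, 7 of the 9 members had an entry, and CP and FTH1 did not. Searched on both strands over 250 bases before the start, ACGTG was found once for TFRC and once for FTL and not in the windows of the other 5. It is in 18.5% of all 35116 windows. The antioxidant-response letters TGACNNNGC were in none of the members' windows and in 10.9% of all windows. The last 100 bases before the TFRC start site, on the minus strand at chr3:196082091-196082190, hold the match 88 bases before the start, in capitals.
TFRC promoter: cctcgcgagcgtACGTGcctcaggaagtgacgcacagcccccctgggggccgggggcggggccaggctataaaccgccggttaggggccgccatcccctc
Such a match is no evidence of binding, which was not measured, and a part of it in the fall of TFRC was not tested.

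The endosomal partners of the receptor were not called in the fit of all 9 libraries. STEAP3, the endosomal ferrireductase, was at 58.1, 8.72 and 51.5 TPM at day 0, at 37.9, 35.0 and 28.3 TPM at day 2 and at 44.2, 47.9 and 66.5 TPM at day 14. Day 0 replicate 2 was the lowest of all 9 libraries, whereas day 0 replicates 1 and 3 were above all of day 2. The log2 change at day 2 was 0.15 (95% interval -1.23 to 1.53, adjusted p = 0.87), and without day 0 replicate 2 it was -0.69 and called (adjusted p = 0.0228). SLC11A2 was at 15.2, 4.79 and 15.1 TPM at day 0, at 10.5, 14.9 and 10.3 TPM at day 2 and at 18.5, 15.5 and 17.1 TPM at day 14. Its day 14 libraries lay above all others, but the difference from day 0 was not called (log2 change 0.65, interval -0.23 to 1.53, adjusted p = 0.214), and without day 0 replicate 2 it was 0.16 (adjusted p = 0.468). Without that library the differences between day 14 and day 2 were called for SLC11A2 (0.50, adjusted p = 0.0436) and STEAP3 (0.62, adjusted p = 0.0387), against adjusted p = 0.539 and 0.639 with it. The antisense gene STEAP3-AS1 was at most 0.819 TPM, and whether the counting used strand is not given in the sources used here.

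Both ferritin chains rose at day 2. FTH1, the ferritin heavy chain with the ferroxidase site, was at 1339, 2045 and 1157 TPM at day 0, at 4707, 5396 and 4445 TPM at day 2 and at 1608, 3078 and 3217 TPM at day 14. FTL, the light chain, was at 1542, 2322 and 1384 TPM at day 0, at 5340, 7217 and 5665 TPM at day 2 and at 2993, 3976 and 4751 TPM at day 14. For both chains every day 2 library was above every other library. FTH1 rose from 1514 ± 469 to 4849 ± 491 TPM (SD, n = 3), a 3.20-fold difference of means and a log2 change of 1.72 ± 0.32 (SE, limma, adjusted p = 0.00502). FTL rose from 1749 ± 502 to 6074 ± 1003 TPM, a 3.47-fold difference of means and a log2 change of 1.82 ± 0.27 (adjusted p = 0.00192). Both rises at day 2 were called in each of the 23 alternatives run. The chains together held 0.326% ± 0.0971 of all TPM at day 0, 1.09% ± 0.146 at day 2 and 0.654% ± 0.174 at day 14 (SD, n = 3). No library had more than 0.582 TPM in any of the 3 processed ferritin copies listed (FTH1P3, FTH1P18 and FTLP10), but how reads shared with such copies were assigned is not known, so both levels carry that uncertainty.

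At day 14 the chains differed in their calls, though not by a test of that difference. FTL was still higher than at day 0 in all 3 libraries (3907 ± 881 TPM, log2 change 1.17 ± 0.27, adjusted p = 0.0118). That call was lost under median-ratio scaling (log2 change 0.62, adjusted p = 0.304), and over all alternatives its adjusted p ran from 3.99e-05 to 0.304. FTH1 was at 2635 ± 892 TPM and not called (log2 change 0.78 ± 0.32, adjusted p = 0.0901), with day 14 replicate 1 inside the day 0 range. Without day 0 replicate 2 it was called (1.01, adjusted p = 0.0219), and likewise without day 14 replicate 1 (1.10, adjusted p = 0.028). The difference between day 14 and day 2 was called for neither chain, at -0.94 for FTH1 (adjusted p = 0.178) and -0.65 for FTL (adjusted p = 0.256). Without day 0 replicate 2 both were called (adjusted p = 0.0342 and 0.0407).

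**Figure D2:**
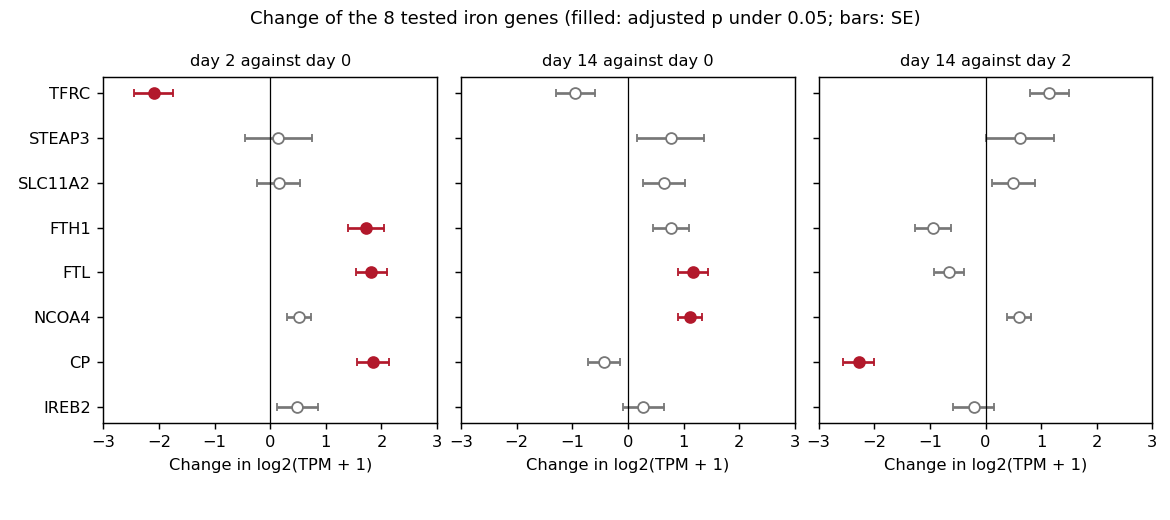
Change in log2(TPM + 1) of the 8 tested genes in the 3 comparisons, with bars for the SE and filled points for an adjusted p under 0.05. At day 2 TFRC lies at -2.09 and FTH1, FTL and CP between 1.72 and 1.85, whereas at day 14 only FTL and NCOA4 are filled against day 0.

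Ratios within a library do not depend on how the library was scaled. FTH1 was 8.65, 20.3 and 8.35 times TFRC in day 0 replicates 1, 2 and 3, 175, 149 and 168 times in those of day 2 and 13.8, 51.4 and 75.8 times in those of day 14. The day 2 libraries were above all others and close together, and day 14 replicate 1 fell between the day 0 libraries. On the log2 scale the TFRC to FTH1 ratio was -3.50 ± 0.72 at day 0, -7.31 ± 0.11 at day 2 and -5.22 ± 1.28 at day 14 (SD, n = 3). The difference of day 2 from day 0 was -3.81 (two-sided exact permutation p = 0.1, the smallest that 3 against 3 allows). That of day 14 from day 0 was -1.72 (exact permutation p = 0.2) and that of day 14 from day 2 was 2.09 (exact permutation p = 0.1). The difference of day 2 from day 0 was -4.23 without day 0 replicate 2. Without day 14 replicate 1, those of day 14 were -2.44 from day 0 and 1.37 from day 2. This ratio sets 2 genes that day 0 replicate 2 shifts in opposite directions beside each other, and its day 0 value of 20.3 stands apart from 8.65 and 8.35.

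The ratio of the ferritin chains spanned a narrower range. FTL was 1.14 to 1.2 times FTH1 in the 3 day 0 libraries, 1.13, 1.34 and 1.27 times at day 2 and 1.86, 1.29 and 1.48 times at day 14. All 3 day 14 ratios were above all of day 0, while day 2 overlapped both. The log2 ratio of FTH1 to FTL was -0.21 ± 0.04, -0.32 ± 0.12 and -0.61 ± 0.27 at day 0, 2 and 14 (SD, n = 3). Day 14 differed from day 0 by -0.39 (exact permutation p = 0.1), from day 2 by -0.29 (exact permutation p = 0.2), and day 2 from day 0 by -0.10 (exact permutation p = 0.4). The 6 differences of both ratios give 6 tests, none of which can pass 0.05. Without day 14 replicate 1 the differences of day 14 were -0.25 from day 0 and -0.15 from day 2. Leaving out day 2 replicate 1 or 2 gave -0.17 or -0.051 for day 2 from day 0. Day 0 replicate 2 did not stand apart in this ratio.

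**Figure D3:**
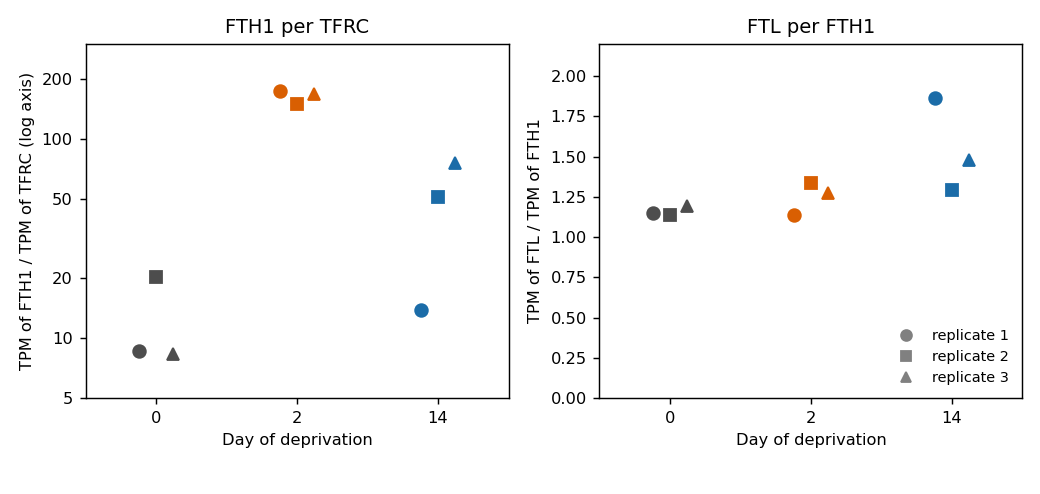
TPM of FTH1 over that of TFRC (left, log axis) and of FTL over that of FTH1 (right) in each library at day 0, 2 and 14, with 1 symbol per replicate number. The left ratio is 149 to 175 at day 2 and spreads from 13.8 to 75.8 at day 14, and the right ratio reaches 1.86 in day 14 replicate 1.

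The day 14 libraries spread widely in several members. Replicate 1 had the most TFRC (116 TPM) and the least FTH1 (1608 TPM) and FTL (2993 TPM), and replicate 3 the least TFRC (42.5 TPM) and the most FTH1 (3217 TPM) and FTL (4751 TPM). HMOX1, the haem oxygenase that releases iron from haem, followed the order of ferritin at 178, 364 and 1243 TPM in replicates 1, 2 and 3. MIR6723 held 16.2% of TPM in replicate 1 and 24.6% and 23.9% in the others. These are 3 libraries and no test was made.

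NCOA4, the ferritin turnover receptor, was at 58.6, 34.9 and 55.1 TPM at day 0, at 69.7, 71.9 and 67.3 TPM at day 2 and at 121, 107 and 92.2 TPM at day 14. The 3 days did not overlap at any point, with day 14 highest. How large a share of all genes separates by day like this is not given, here or for the other members. NCOA4 rose from 49.5 ± 12.8 TPM at day 0 to 107 ± 14.4 TPM at day 14 (SD, n = 3), a 2.15-fold difference of means and a log2 change of 1.12 ± 0.22 (SE, limma, adjusted p = 0.00621), called in each of the 23 alternatives run. Under median-ratio scaling the log2 change was smaller, at 0.58 (adjusted p = 0.0164). The day 2 level of 69.7 ± 2.29 TPM was not called against day 0 (log2 change 0.52, 95% interval 0.02 to 1.02, adjusted p = 0.105) nor against day 14 (0.60, interval 0.10 to 1.10, adjusted p = 0.207). Quantile normalization called the former (0.55, adjusted p = 0.0126), and leaving out day 0 replicate 2 called the latter (adjusted p = 0.0134). TAX1BP1, an autophagy adaptor that takes part in the NCOA4 route, rose from 51.9 ± 10.4 to 94.4 ± 9.25 TPM at day 2 (log2 change 0.87, adjusted p = 0.0103) and to 147 ± 9.59 TPM at day 14 (adjusted p = 0.00111).

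CP and SLC40A1 were the lowest members on every day. CP was at 1.41, 0.426 and 0.767 TPM at day 0, at 8.70, 4.51 and 4.34 TPM at day 2 and at 0.217, 0.576 and 0.294 TPM at day 14. Every day 2 library was above all others, while day 0 and day 14 overlapped. CP rose from 0.868 ± 0.501 to 5.85 ± 2.47 TPM at day 2 (SD, n = 3), a 6.74-fold difference of means, with a change of 1.85 ± 0.28 in log2(TPM + 1), a scale that understates changes of so low a gene (SE, limma, adjusted p = 0.00223). This rise was called in each of the 22 alternatives in which CP was tested, and with a pseudocount of 5 it was 0.87. It fell by 2.28 on that scale between day 2 and day 14 (adjusted p = 0.0281). The second call was less firm, since it was lost with a pseudocount of 0.1 (adjusted p = 0.0504), with the replicate block (0.0917) and without day 2 replicate 1, 2 or 3 (0.105, 0.0942 and 0.161) or day 14 replicate 1, 2 or 3 (0.139, 0.0791 and 0.111). Day 14 was not called against day 0 (log2 change -0.43, 95% interval -1.08 to 0.22, adjusted p = 0.26), except under quantile normalization (-0.88, adjusted p = 0.0357). Hepatocytes are the main source of CP in the body, and 6 of their markers were looked up. TTR and HAMP were listed at 0 in all libraries and ALB was at most 0.0982 TPM. The sum of the 6 was also highest at day 2, at 0.792 to 1.22 TPM against 0.238 to 0.526 TPM at day 0 and 0.2 to 0.401 TPM at day 14. Much of it at day 2 was TF, the gene of transferrin itself, at 0.562 to 0.749 TPM against at most 0.0519 TPM at day 0.

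SLC40A1, the exporter itself, did not reach 1 TPM in any library and was not tested. It was at 0.138, 0.039 and 0.0136 TPM at day 0, at 0.18, 0.154 and 0.16 TPM at day 2 and at 0.247, 0.174 and 0.283 TPM at day 14. Day 2 and day 14 libraries were all above day 0 and overlapped each other. With no filter on low values the adjusted p was 0.126 for day 2 and 0.0245 for day 14 against day 0, with a change of 0.22 in log2(TPM + 1) for the latter. The depth behind such values is unknown. HEPH, the membrane ferroxidase that works with ferroportin, and HAMP, which encodes hepcidin, the hormone that removes ferroportin from the membrane, were listed at 0 in all 9 libraries.

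IREB2, the iron regulatory protein among the members, was at 14.3, 4.67 and 14.4 TPM at day 0, at 13.6, 14.0 and 15.7 TPM at day 2 and at 10.3, 14.7 and 12.3 TPM at day 14. Apart from day 0 replicate 2 the libraries of the 3 days overlapped or lay side by side. None of its comparisons was called, at 0.49 for day 2 against day 0 (95% interval -0.36 to 1.33, adjusted p = 0.341), 0.27 for day 14 against day 0 (interval -0.57 to 1.12) and -0.21 for day 14 against day 2 (interval -1.05 to 0.63). Without day 0 replicate 2 the first was 0.01 (adjusted p = 0.97). ACO1 was at 17.7 ± 5.54, 15.2 ± 1.39 and 19.4 ± 2.25 TPM at day 0, 2 and 14 (SD, n = 3) and FBXL5, the iron-sensing ubiquitin ligase subunit that marks IREB2 for breakdown, at 5.35 ± 2.57, 5.35 ± 0.549 and 7.52 ± 0.649 TPM. Neither was called. These proteins are controlled mainly by their iron-sulphur cluster or their stability, which RNA does not show.

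**Figure D4:**
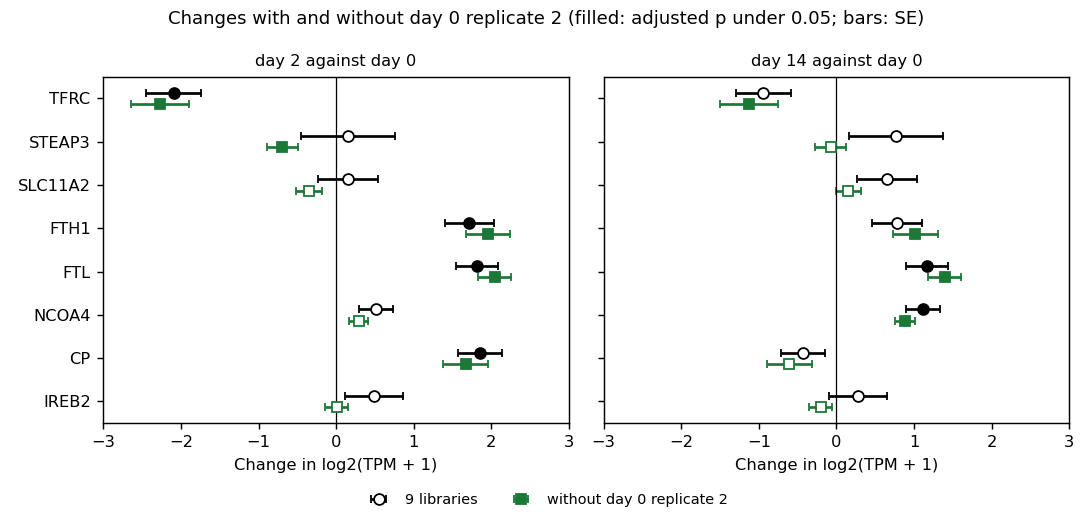
Change in log2(TPM + 1) against day 0 of the 8 tested genes with all 9 libraries (black circles) and without day 0 replicate 2 (green squares), with bars for the SE and filled symbols for an adjusted p under 0.05. STEAP3 moves from 0.15 to -0.69 at day 2, whereas TFRC, FTH1, FTL and CP are called both ways at day 2.

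In TPM the order of the members was stable at its ends. FTL and FTH1 led and CP and SLC40A1 were last on all 3 days. TFRC ranked 3 at day 0 (131 TPM), 5 at day 2 (29.8 TPM), behind NCOA4 and STEAP3, and 4 at day 14 (72.9 TPM). At day 2, STEAP3 (28.3 to 37.9 TPM) and TFRC (26.4 to 36.2 TPM) overlapped, as did SLC11A2 (10.3 to 14.9 TPM) and IREB2 (13.6 to 15.7 TPM). FTL and FTH1 overlapped on all 3 days.

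Other genes of iron handling were counted by lists, with the called shares of all genes at 19.2% higher and 11.5% lower for day 2 and 27.5% higher and 6.72% lower for day 14 against day 0. Of 10 tested genes of other uptake routes, 2 rose and 2 fell at day 2, and 3 rose and 1 fell at day 14. Those that fell at day 2 were STEAP1, a relative of STEAP3 (log2 change -1.81, and -2.34 at day 14, adjusted p = 0.000388), and the metal importer SLC39A8 (-0.92, adjusted p = 0.0025). SLC39A8 was near 1 TPM and passed the filter through its 3 day 0 libraries and 1 of day 14, so its inclusion leans on day 0, where it is high. SLC39A14, an importer of iron not bound to transferrin, rose from 30.2 ± 12 to 64.3 ± 11.7 TPM by day 14 (1.14, adjusted p = 0.0216), a call lost without day 14 replicate 1 or 2 and without MIR6723 and MIR4461 in the total. The siderophore-binding LCN2 rose from 0.132 ± 0.173 to 5.27 ± 0.87 TPM by day 14 (2.47, adjusted p = 0.000378) and the ferrireductase CYBRD1 from 0.115 ± 0.0587 to 1.48 ± 0.0273 TPM (1.15, adjusted p = 0.000951). LCN2 passed the filter through day 2 and day 14, and CYBRD1 through day 14 alone, the days at which they are high. Their inclusion thus leans on those days. These 2 were also the rises called at day 2 (1.05 and 0.47, limma, adjusted p = 0.0109 and 0.0354), when CYBRD1 was at 0.552 ± 0.214 TPM. The median log2 change of the list was -0.22 at day 2 and -0.16 at day 14. The number lower was 4 at both times under median-ratio scaling and 5 at both under quantile normalization, which gave 1 higher at day 2. With day 0 replicate 2 left out, 5 fell at day 2 and 3 at day 14. The rises at day 14 numbered 1 when day 14 replicate 1 or 2 was left out. Those at day 2 numbered 1 when day 0 replicate 1 or 3, day 2 replicate 1 or 2, or any 1 day 14 library was left out. Without any 1 day 14 library CYBRD1 was below the filter and not tested, so its absence from those counts is not a lost call. Its day 14 rise was called in each of the 18 alternatives in which it was tested.

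Of 19 tested genes of haem, 6 rose and 4 fell at day 2, and 6 rose and 3 fell at day 14. HMOX1 rose most, from 69.9 ± 19.3 to 2344 ± 448 TPM at day 2 (5.07 ± 0.61, adjusted p = 0.000754), beside the transporters FLVCR2 (1.94) and ABCB6 (1.61). The synthesis enzymes split, since FECH, which inserts iron into protoporphyrin to make haem, rose (1.35, adjusted p = 0.0011) and the upstream enzyme UROD (-1.75) fell. BLVRA, which handles the product of haem breakdown, also fell (-1.27 at day 2 and -1.36 at day 14). For day 14 the list had 2 higher and 4 lower under median-ratio scaling and 4 higher and 5 lower under quantile normalization. Leaving out day 0 replicate 2 gave 5 lower, and leaving out day 14 replicate 3 gave 3 higher. For day 2 it had 7 lower under quantile normalization, and 2 lower when day 2 replicate 3 was left out. Its median log2 change was 0.12 at day 2 and 0.27 at day 14. The sum of 5 erythroid markers, 1 of which (ALAS2) is in the haem list, was also higher after day 0, at 6.49 to 7.62 TPM at day 0, 15.1 to 23.6 TPM at day 2 and 13.6 to 18 TPM at day 14. HBB was listed at 0 throughout. ALAS2, at most 0.14 TPM, was below the filter, so it is not in the counts of the 19 tested genes. The erythroid markers that passed it were EPOR (up to 18.3 TPM) and HBA1 (up to 5.31 TPM), which are not in the haem list. A link of these markers to the haem changes was not tested.

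Mitochondrial iron import and iron-sulphur cluster assembly, with 27 tested genes, had 2 higher and 7 lower at day 2, and 1 higher and 3 lower at day 14. The median log2 change was -0.44 at day 2 and -0.05 at day 14. BOLA3, a late-acting assembly factor, fell from 103 ± 25.5 to 37.0 ± 2.35 TPM at day 2 (-1.43 ± 0.21, adjusted p = 0.00177), beside NFU1 (-1.01), FDX1 (-0.94) and the iron importer SLC25A28 (-0.83). IBA57 (0.93) and ISCA1 (0.61) rose. This list moved most with the libraries and the scaling. For day 2 the number lower was 12 under median-ratio scaling, 13 under quantile normalization and 13 with day 0 replicate 2 left out. It was 4 when day 0 replicate 3 was left out, and 3, 4 and 3 for day 2 replicates 1, 2 and 3, each of which also left 1 higher. For day 14 it was 10 under median-ratio scaling, 11 under quantile normalization and 6, with 3 higher, when day 0 replicate 2 was left out. It was 1 when day 14 replicate 2 or 3 was left out.

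Of 8 copper genes, listed because ceruloplasmin needs copper, 2 rose and 2 fell at day 2. ATP7A, which loads copper into secreted proteins, rose from 2.82 ± 1.12 to 10.1 ± 0.294 TPM (1.58, adjusted p = 0.0018) and the copper importer SLC31A1 rose (1.27, adjusted p = 0.032). The copper chaperone ATOX1 fell from 212 ± 89.1 to 56.7 ± 3.65 TPM (-1.81, adjusted p = 0.00206), and the fall of SLC31A2 was lost in 10 of 21 alternatives. The rises numbered 1 when any 1 day 2 library, or day 14 replicate 2 or 3, was left out. For day 14, 2 rose and 1 fell. The median log2 change was -0.38 at day 2 and -0.18 at day 14. Of 7 genes around hepcidin signalling 3 rose and 1 fell at both times, with ID1, a target of bone morphogenetic protein signals, at -2.33 at day 2 and -3.40 at day 14 (adjusted p = 0.000236). NEO1, a co-receptor partner of hemojuvelin, and the receptor ACVR1 rose by day 14 (1.52 and 1.15). NEO1 was under 1 TPM at day 0 and passed the filter through the later days, where it is high. The inhibitory SMAD6 rose at day 2 (1.40, adjusted p = 0.0305), a call lost without any 1 day 2 library and with no filter. The rises at day 2 numbered 1 when day 2 replicate 1, 2 or 3 was left out, and the falls 2 at both times when day 0 replicate 2 was. The median log2 change was 0.52 at day 2 and 0.57 at day 14. Of 5 genes of the regulatory protein system, 0 were called by limma against day 0 and 0 at an unadjusted p under 0.05, with median log2 changes of 0.04 and 0.27. Median-ratio scaling gave 1 lower at day 2, and leaving out day 0 replicate 2 gave 2 lower at day 2 and 1 higher at day 14. TAX1BP1 was the 1 called gene of 5 in the list of chaperones and ferritin turnover, whose medians were 0.40 and 0.54. Median-ratio scaling, and leaving out day 0 replicate 2, each added 1 lower at each time.

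**Figure D5:**
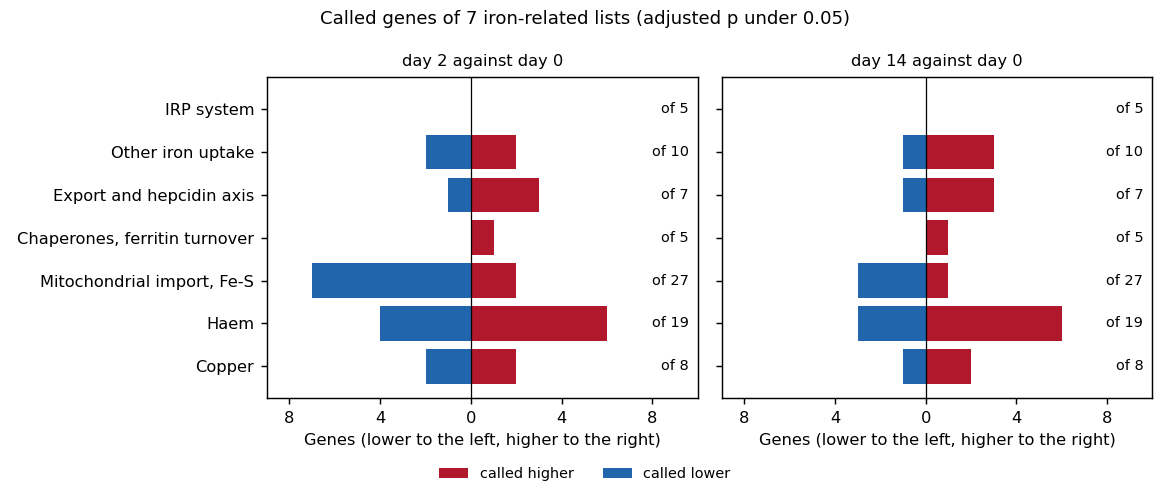
Number of genes called higher (right, red) and lower (left, blue) in 7 iron-related lists at day 2 and day 14 against day 0, with the number tested at the right edge. Haem genes move both ways, with 6 higher and 4 lower at day 2. The list of mitochondrial iron import and iron-sulphur cluster assembly has 7 of 27 lower at day 2.

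Genes among those with the most similar course over the 9 libraries were found by Pearson's r of log2(TPM + 1) for the 3 members with the smallest F test p, among 8530 candidates. The values describe libraries that share days and scaling. For TFRC they were BCS1L (0.989), SLC52A2 (0.988) and ZNF239 (0.987), for FTL they were IER5L (0.991) and FAM228B (0.983), and for CP they were PDGFA (0.946) and FDPS (0.938). FDPS, an enzyme of the sterol pathway, went from 85.6 to 244 and 69.1 TPM at day 0, 2 and 14. It was picked for its likeness to CP, so the shared transient course is no separate result. A link between them was not tested.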

How the data were processed

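Expression was measured by RNA sequencing in 9 PANC-1 libraries, 3 per day. The authors deposited the TPM of 27800 gene symbols in a single table. The submitters' processing notes name Salmon, a transcript quantifier, and hg19. Which version, annotation, strand setting and read filters were used is not given in the sources used here. Columns were assigned by the day and replicate number in their names. Values were analysed as log2(TPM + 1). The filter kept 14144 genes that reached 1 TPM in 3 or more libraries. They were tested in a single limma fit (3.58.1, R 4.3.3) of the 9 libraries, moderated along the intensity. Tests were two-sided, and p-values were adjusted by Benjamini-Hochberg over all 14144 genes and called at 0.05. TPM keeps no depth, so no counting interval is given. Ratios were compared by exact permutation. The fit was tested on simulated data with independent noise in each gene and changes planted only in genes of higher level. These data held no shift of a whole library. The test thus does not cover a library like day 0 replicate 2 or low genes such as CP. No pair of libraries shared nonzero values, so none was counted as a duplicate. Members and lists were chosen with earlier results of these data known. Named genes were the 9 members, up to 3 called rises and 3 called falls per list, with others from the lists named after their values were seen (ACO1, FBXL5, SLC25A28, FECH, HEPH and HAMP). The genes of most similar course were the 3 with the highest Pearson's r for each of 3 members, and some genes these rules cover are not reported here. Alternatives were other pseudocounts, filters, scalings, moderation, array weights, a replicate block, fits of 2 days, summed ferritin copies and leaving out each library. Rescaling without MIR6723 and MIR4461, the alternatives of the F test and the list counts under the alternatives were added after the data were seen. Sequences came from GENCODE v29 (GRCh38) and RefSeq (GRCh38.p14), and no coordinate was taken from hg19.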

Additional observations from a re-analysis of the deposited data

How the results depend on the processing

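Of 549 values of single members under the alternatives, 501 kept their direction and their side of the threshold, 25 gained a call, 9 lost one and 14 changed sign. For day 2 against day 0, the 4 members called became 7 with array weights (63.5% of all genes called) and 4 to 5 when single libraries were left out. For day 14 against day 0, the 2 called became 5 under quantile normalization (34.4% of all genes), 4 with array weights (59.8%) and 2 to 4 without single libraries (4 without day 0 replicate 2, 49.1%, or day 14 replicate 1, 24.3%). For day 14 against day 2, the 1 called became 0 with a pseudocount of 0.1, 0 with a mean of at least 5 TPM (CP is then not tested), 0 with the replicate block, 7 with array weights (35.7%), 2 in the fit of only these days (17.8%) and 0 to 7 without single libraries (7 without day 0 replicate 2, 27.4%). By the F test the 5 members called became 3 under median-ratio scaling, and 5 to 7 without single libraries.

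Sign changes concerned genes that were not called in the fit of 9 libraries. For day 2 against day 0, SLC11A2 was -0.094, -0.13, -0.44, -0.34 and -0.011 and STEAP3 was -0.11, 0.00 (-5.9e-05), -0.67 and -0.69. The settings were median-ratio scaling, quantile normalization, array weights and leaving out day 0 replicate 2, and for SLC11A2 also day 2 replicate 2. For day 14 against day 0, IREB2 was -0.21, -0.24, -0.14 and -0.20 in the first 4 of these, and STEAP3 was -0.073 without day 0 replicate 2. Over single libraries left out, these ran from -0.34 to 0.40 for SLC11A2 and -0.69 to 0.61 for STEAP3 at day 2, and from -0.073 to 1.23 for STEAP3 and -0.20 to 0.52 for IREB2 at day 14. The cause was not tested. The differences in the TFRC to FTH1 and FTH1 to FTL ratios kept their sign with other pseudocounts, summed copies and single libraries left out, and moved by less than the pooled SD of the days compared. Some moved by more than the SD of the tighter day. Over single libraries left out, TFRC to FTH1 ran from -4.23 to -3.59, -2.44 to -1.22 and 1.37 to 2.59, and FTH1 to FTL from -0.17 to -0.051, -0.51 to -0.25 and -0.41 to -0.15, in the order of the comparisons above.

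Over all genes, the calls numbered 4348 (2678 to 8975 over the alternatives) for day 2 against day 0, 4841 (2927 to 8455) for day 14 against day 0 and 59 (0 to 5052) for day 14 against day 2. Libraries with the same replicate number were no more alike than others. Deviations from the day means correlated at -0.0795 to 0.0154 over the 9 same-numbered pairs, and 0 of 9 libraries correlated best with their own number. With 3 libraries per day this cannot settle whether a number marks a shared culture. The replicate block gave 4, 2 and 0 members called, in the order of the comparisons above. Depth is unknown, which limits the values of CP and SLC40A1 most.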
